A study of Mus musculus with 3 samples.

Results

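The genes described here encode the interstitial extracellular matrix of the mouse ovary: collagens, small leucine-rich proteoglycans, versican, elastic fibre and microfibril proteins, crosslinking enzymes and adhesive glycoproteins. They are 40 of the 53465 genes counted, taken as a list of symbols chosen with earlier results of these data known. Every one of the 40 was found once in the count tables. The series profiled dissociated ovaries of female C57BL/6 mice by droplet single-cell RNA sequencing at embryonic day 16.5 (ED16.5; the sample title gives day 17), postnatal day 7 (PND7) and postnatal day 14 (PND14), with no transgene or treatment named. Each age is 1 library, and the number of animals behind a library is not given in the sources used here. Age and library therefore cannot be told apart, and without replicates no p-value is given for any difference between ages.

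Interstitial matrix is the fibrous and hydrated material between cells. Fibrillar collagens give it tensile strength, small leucine-rich proteoglycans bind collagen fibrils and set their diameter and spacing, and elastin deposited on fibrillin microfibrils lets it recoil. In the ovary it surrounds the follicles and is made largely by stromal fibroblasts, while granulosa cells and vessels make matrix proteins of their own.

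The libraries held 459, 510 and 585 cell barcodes at ED16.5, PND7 and PND14, of which 456, 509 and 583 were kept, and no barcode was shared between libraries. Kept cells summed to 8964585, 8735023 and 9053047 unique molecular identifiers (UMIs), with medians of 11435 to 15090.5 UMIs per cell. Cells were clustered without the 40 genes, and the 21 clusters were named from marker lists that hold none of them, so that no matrix gene defined the stroma in which it is described. The stroma-like class held 107, 329 and 358 cells, which was 23.5%, 64.6% and 61.4% of the kept cells. Its transcription factor marker Tcf21 stood at 369, 389 and 474 CPM (a gene's UMIs per 1000000 UMIs of the class in that library), against 9.94, 26.8 and 55.3 CPM in all other cells. Pdgfra, the receptor that marks many fibroblasts, stood at 173, 231 and 245 CPM. Of the 18 stroma markers, 16, 14 and 12 were above their level in all other cells at the 3 ages, and 11, 12 and 9 at least 2-fold with 10 CPM added to both sides. Others did not mark the class at every age: Dlk1 stood at 863, 552 and 20.1 CPM, and Gas1 at 304, 139 and 56.5 CPM, the last below the 65.2 CPM of other cells. Ebf1, Nr2f1, Thy1 and Ly6a were below other cells at PND7 and PND14.

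Different clusters made up the stroma at each age. At ED16.5, 106 of the 107 cells were in cluster 4, led by Ptn, Ncam1 and Meg3. It matched 6 stroma and 6 smooth muscle or pericyte markers and was placed by 1 of its 10 leading genes, the stroma marker Dlk1. At PND7, 132 cells were in cluster 15 (led by Dpt, Cxcl12 and Itm2a), 92 in the cycling cluster 11, 55 in cluster 14 (led by Tgfbi), 34 in cluster 16 (led by Tmem100, Hhip and Osr2) and 15 in cluster 17. At PND14, 182 cells were in cluster 17 (led by Cxcl14, Dpep1 and Clec1a), 89 in cluster 16, 55 in cluster 11 and 29 in cluster 14. A cluster found mostly in 1 library may be that library and not a cell type. Cluster 16 rested on 3 stroma markers and cluster 11 on 4. Haemoglobin and other erythroid markers summed to 6394, 3008 and 425 CPM in the stroma-like cells, 1.16%, 0.528% and 0.0446% of their level in erythroid-like cells. Smooth muscle and pericyte markers summed to 571, 817 and 1546 CPM, with 13, 14 and 14 of 14 detected and Acta2 highest at each age. Granulosa markers summed to 611, 700 and 457 CPM, 9.99%, 10.1% and 4.78% of their level in granulosa-like cells, with 17, 20 and 18 of 21 detected and Cyp19a1 at 0 throughout. Theca markers summed to 112, 360 and 420 CPM with 8, 10 and 12 of 12 detected, and Cyp17a1 at 0 at ED16.5 and PND7. The part of these other cell types in the results below was not tested, except where cells or clusters are left out.

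Together the 40 genes supplied 1.13% of stroma-like UMIs at ED16.5 (exact binomial 95% interval 1.12% to 1.14%), 1.77% at PND7 (1.75% to 1.78%) and 1.36% at PND14 (1.35% to 1.37%). These intervals, like all those below, cover counting error only. The same genes supplied 0.0161%, 0.0437% and 0.0203% of UMIs in erythroid-like cells, which should lack them, and 0.305%, 0.235% and 0.248% in granulosa-like cells. Single stroma-like cells spread widely around these values, with the middle 50% of cells at 0.841% to 1.33%, 1.42% to 2.47% and 0.98% to 1.86%. The largest share was therefore that of the PND7 stroma, and the middle 50% of ED16.5 cells lay below that of PND7 cells, while both overlapped that of PND14 cells.

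Many members had more in stroma-like than in other cells. Because the member and marker lists were chosen with earlier results of these data known, an excess over all genes is no independent evidence. A gene is counted as higher or lower here when its level differed at least 2-fold after 10 CPM was added to both sides, among genes with at least 10 UMIs in both sides together. By that rule 28 of 40 members were higher in stroma-like than in all other cells at ED16.5, 26 of 40 at PND7 and 21 of 39 at PND14, where 6.14%, 3.04% and 1.54% of all genes tested were. The members lower in stroma-like cells numbered 0, 1 and 1, against 3.72%, 6.44% and 5.04% of all genes. The other cells were not a like set at each age. Erythroid-like cells numbered 142, 13 and 9 and germ-cell-like cells 69, 12 and 3, while the 42 theca-like cells were at PND14 only. The counts of 28, 26 and 21 therefore do not share a comparator. The PND14 count of 21 higher was 12 when cells were gated one by one and 13 without cells holding a pericyte marker UMI. The stroma-like class was the class with the highest level for 26 members at ED16.5, for 14 at PND7 and for 11 at PND14. At PND7 and PND14, 13 and 12 members were instead highest in the smooth-muscle-like cells, a class with no cells at ED16.5. There, cluster 4 matched as many smooth muscle or pericyte as stroma markers and was counted as stroma. Stroma-like cells without a pericyte marker UMI numbered 49 of 107, 245 of 329 and 265 of 358 at the 3 ages. The counts of 26, 14 and 11 therefore do not rest on like sets of classes. Classes with fewer than 10 cells in a library were left out of them, and some orders lay within counting error. At PND7 Col1a1 stood at 1056 CPM (908 to 1221) in smooth-muscle-like cells and 992 CPM (963 to 1023) in stroma. For Mfap5 the intervals lay apart, at 1039 CPM (892 to 1203) and 107 CPM (97.1 to 117). In the median member, 70.3%, 82.7% and 74.6% of the library's UMIs came from stroma-like cells, which held 21.5%, 48.7% and 51.0% of all UMIs.

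**Figure D1:**
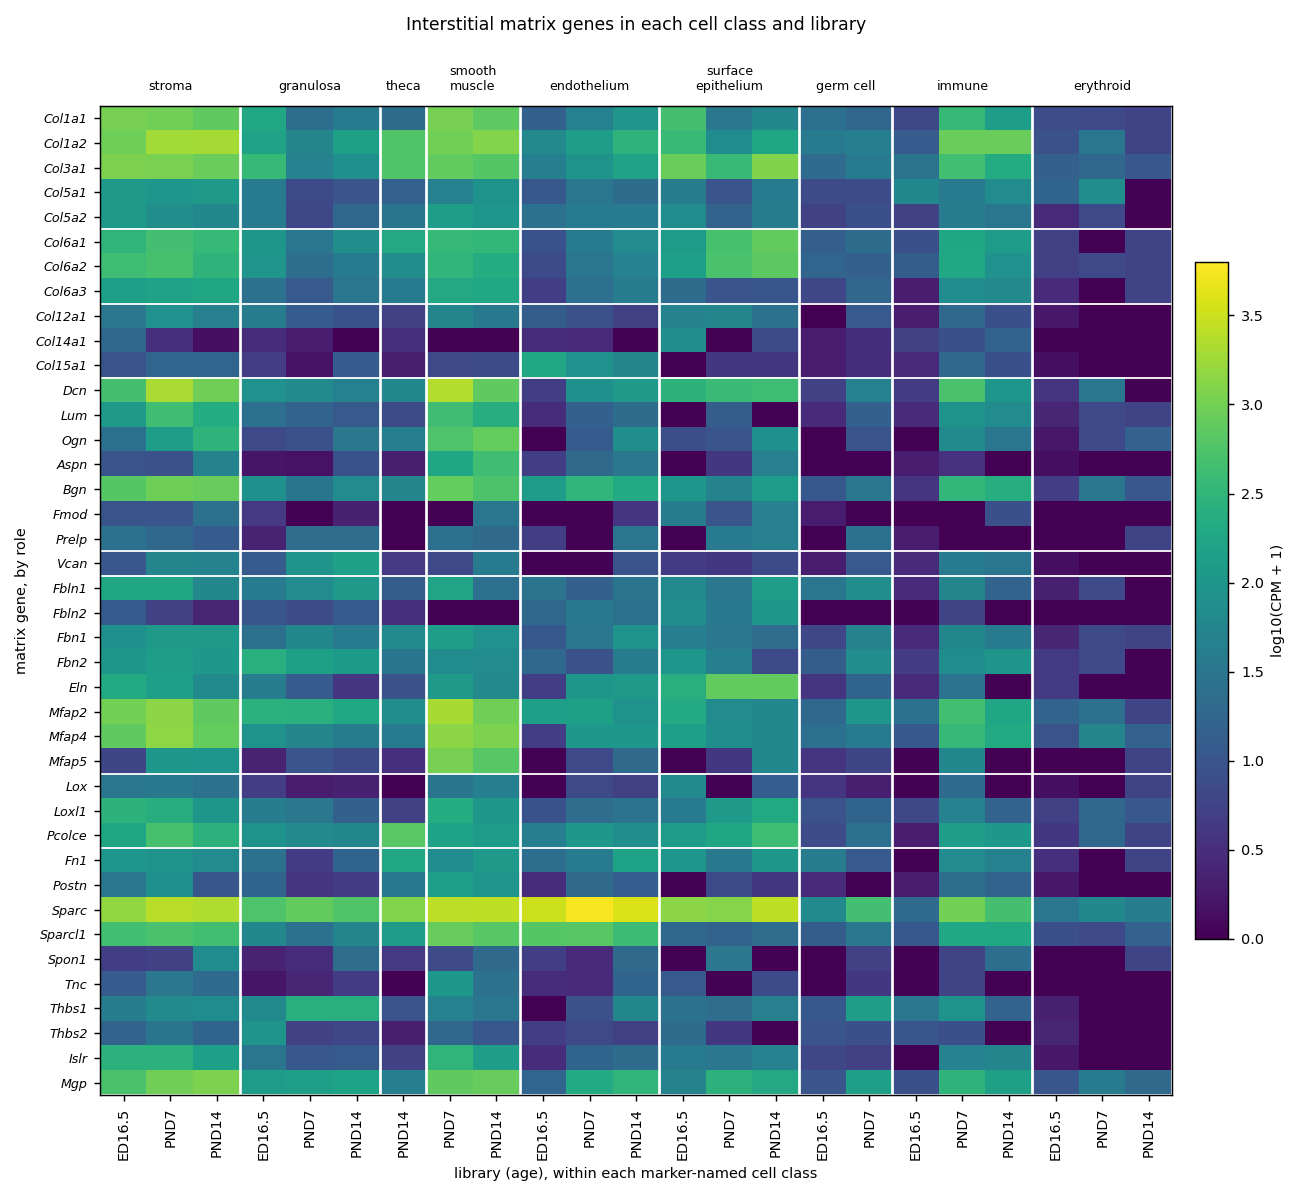
Levels of the 40 matrix genes (rows, grouped by role) in each marker-named cell class and library (columns), as log10(CPM + 1). The stroma and smooth muscle columns are bright over most rows and the erythroid columns are dark, while Sparc is bright in endothelium, Eln in surface epithelium and Thbs1 in granulosa cells.

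The PND7 stroma had higher levels of the small proteoglycan genes Dcn, Lum and Ogn, of Vcan and of the microfibril gene Mfap5 than the ED16.5 stroma. The PND14 stroma had less Postn and Fbln1 than the PND7 stroma and more Spon1, Aspn and Ogn. At PND7 against ED16.5, 9 of 40 members were higher (1.91% of the 13584 genes tested were) and 1 was lower (1.56%), and the median member differed by 0.36 on the log2 scale against -0.00 for all genes. At PND14 against PND7, 3 of 40 were higher (0.375% of 14139 genes) and 5 lower (0.75%), with a median of -0.30 against -0.06. With median-of-ratios scaling that split was 3 higher and 2 lower. At PND14 against ED16.5, 7 were higher (2.01% of 13676 genes) and 5 lower (2.61%). The count of 7 was 13 without clusters 11 and 16 and 11 without cells holding a pericyte marker UMI. The comparisons share libraries and are not independent of each other. Nor is the member list independent of these data, so the shares of all genes are given for scale and not as a test.

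**Figure D2:**
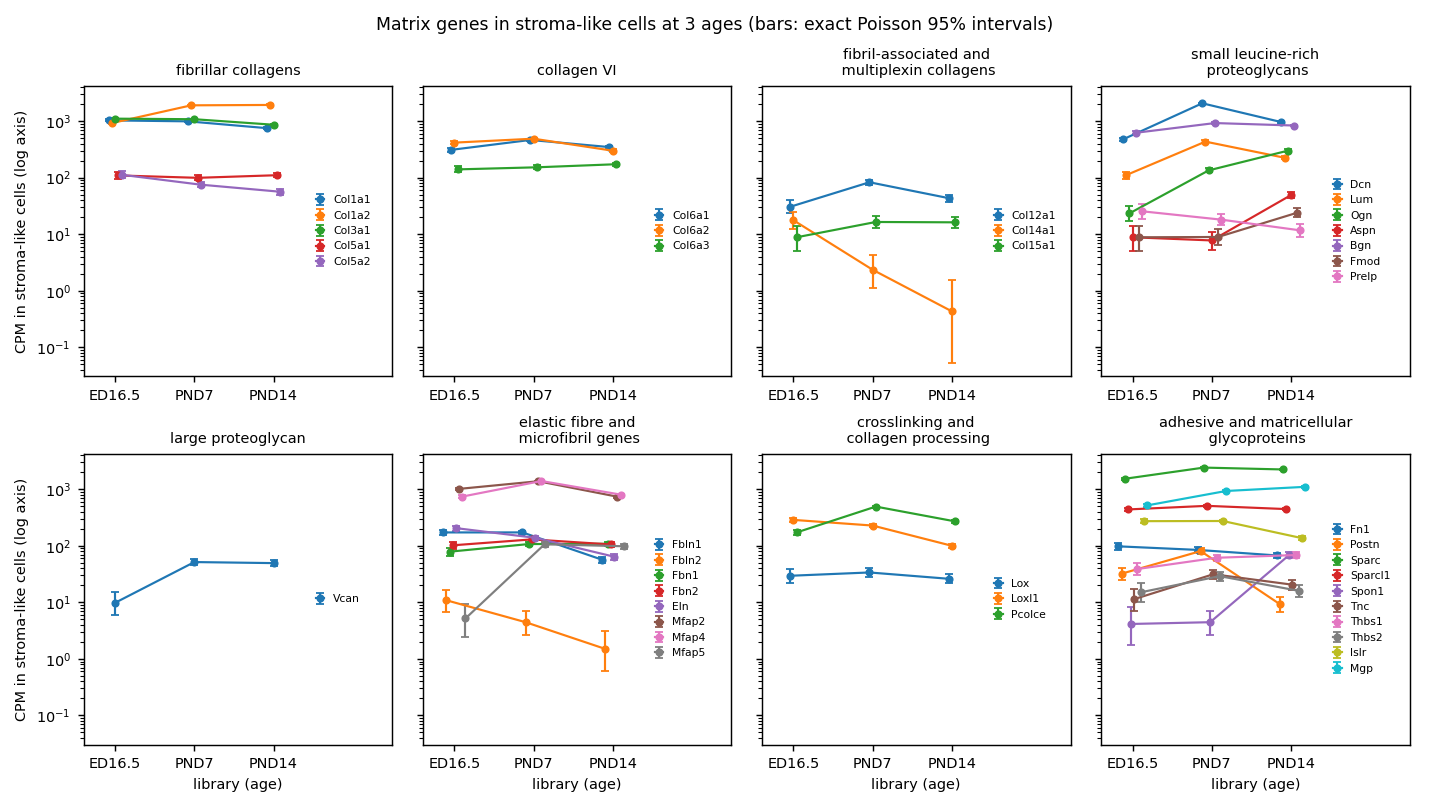
Level of each matrix gene in stroma-like cells (CPM, log axis) at the 3 ages, 1 panel per role, with exact Poisson 95% intervals and lines joining the values of a gene. Ogn is higher at each later age, Dcn and Lum are highest at PND7, and Spon1 and Aspn are low until PND14.

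The fibrillar collagens were abundant at every age. Col1a1, the alpha-1 chain of collagen I, stood at 1032, 992 and 751 CPM at ED16.5, PND7 and PND14. Col1a2, its partner chain, stood at 926, 1905 and 1935 CPM. The chains thus differed in their pattern: Col1a2 was 2.06-fold higher at PND7 than at ED16.5 (95% interval 1.95 to 2.17), while for Col1a1 the ratio was 0.961 (0.911 to 1.01). Col3a1, which encodes collagen III, stood at 1107, 1082 and 864 CPM. Of the chains of collagen V, which nucleates fibrils, Col5a1 stood at 110, 99.5 and 111 CPM and Col5a2 at 113, 75.2 and 56.5 CPM, and neither met the 2-fold rule in any contrast. The collagen VI genes, whose chains form beaded microfibrils around cells, were likewise within 2-fold at all ages: Col6a1 at 311, 465 and 348 CPM, Col6a2 at 417, 490 and 300.2 CPM, and Col6a3 at 140, 153 and 173 CPM.

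Fibril-associated and multiplexin collagens were scarcer. Col12a1, whose product decorates collagen I fibrils, stood at 30.6, 83.0 and 43.5 CPM and was 2.71-fold higher at PND7 than at ED16.5 (2.05 to 3.63). Col14a1, a related fibril-associated collagen, had 34, 10 and 2 UMIs, or 17.7, 2.35 and 0.433 CPM. It was the only member lower at PND7 than at ED16.5, a call that was lost in 4 of the alternatives, separate clustering of the libraries among them. Of the 10 UMIs at PND7, 6 lay in the 15 cells of cluster 17. Col15a1, a collagen of basement membrane zones, stood at 8.83, 16.5 and 16.2 CPM in stroma, and 183, 83.0 and 52.5 CPM in endothelium-like cells, the highest class for it at each age.

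Among the small leucine-rich proteoglycans, early and late genes stood side by side. Dcn (decorin, which binds collagen I fibrils) stood at 477, 2071 and 962 CPM. Lum (lumican, which restrains fibril thickness) stood at 111, 434 and 225 CPM. Both were highest at PND7: Dcn was 4.34-fold higher there than at ED16.5 (4.06 to 4.65) and 2.15-fold lower again at PND14 (2.08 to 2.23), and Lum was 3.91-fold higher (3.39 to 4.53) and then 1.93-fold lower (1.79 to 2.08), just inside the 2-fold limit. Dcn kept its direction but not its call at PND14 against PND7 with median-of-ratios scaling, where its difference was -0.95 on the log2 scale.

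Ogn (osteoglycin, or mimecan, a keratan sulfate proteoglycan) stood at 23.4, 134 and 300.2 CPM. It was higher at each later age, 5.76-fold at PND7 against ED16.5 (4.25 to 7.98) and 2.23-fold at PND14 against PND7 (2.02 to 2.46). Aspn (asporin, which binds collagen and has an aspartate-rich N terminus) stood at 8.83, 7.76 and 49.1 CPM from 17, 33 and 227 UMIs. It was low at the first 2 ages and 6.33-fold higher at PND14 than at PND7 (4.38 to 9.42). At ED16.5 all 17 Aspn UMIs came from 4 cells. The Ogn difference between PND7 and PND14 kept its direction but missed the 2-fold rule with separate clustering of the libraries, with cell-by-cell gating and without cluster 11.

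Fmod (fibromodulin, which shares a binding site on collagen with lumican) stood at 8.83, 8.93 and 24.0 CPM. Its 2.69-fold ratio at PND14 over PND7 (1.84 to 3.996) did not meet the rule once 10 CPM was added. Bgn (biglycan, the close relative of decorin) stood at 623, 925 and 837 CPM and met the rule in no contrast. Prelp, which anchors basement membrane to connective tissue, stood at 25.4, 18.1 and 11.7 CPM.

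Several of these proteoglycan genes are neighbours in the genome (GRCm38, GENCODE M21 coordinates). Aspn (chr13:49544443-49567565) and Ogn (chr13:49608046-49624501) are both on the plus strand, 40.5 kb apart. Omd is the only protein-coding gene wholly between them, and Cenpp on the other strand overlaps both. Dcn (chr10:97479609-97518143) and Lum (chr10:97565128-97572703) are 47.0 kb apart with no protein-coding gene wholly between them, also on the plus strand. The neighbours Aspn and Ogn were both higher at PND14 than at PND7, but of the 2 only Ogn was also higher at PND7 than at ED16.5. Dcn and Lum were both highest at PND7. Another pair of proteoglycan genes is Prelp (chr1:133910304-133921414, minus strand) and Fmod (chr1:134037254-134048277, plus strand), also with no protein-coding gene wholly between them. They ran opposite ways, Prelp being lowest and Fmod highest at PND14. Being neighbours therefore did not go with a shared pattern in every one of these proteoglycan pairs. RefSeq promoters of GRCm38.p6 were matched for 23 of the 40 members. The 250 bases before the start are printed for Aspn and Ogn as the neighbours that were higher late, and for Postn and Fbln1 as 2 of the 5 members that were lower late. These genes were chosen after their values were seen. Capitals mark matches on either strand to the TATA box letters TATAAA or the CCAAT box, and the SP1 letters GGGCGG, the AP-1 letters TGANTCA and the GLI letters GACCACCCA were searched in the same way.
Aspn, chr13:49544193-49544442, plus strand: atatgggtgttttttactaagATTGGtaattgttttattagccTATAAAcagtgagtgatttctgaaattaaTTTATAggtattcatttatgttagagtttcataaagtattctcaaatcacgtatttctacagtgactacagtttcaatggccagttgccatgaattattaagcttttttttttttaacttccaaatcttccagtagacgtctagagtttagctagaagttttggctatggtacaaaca
Ogn, chr13:49607765-49608014, plus strand: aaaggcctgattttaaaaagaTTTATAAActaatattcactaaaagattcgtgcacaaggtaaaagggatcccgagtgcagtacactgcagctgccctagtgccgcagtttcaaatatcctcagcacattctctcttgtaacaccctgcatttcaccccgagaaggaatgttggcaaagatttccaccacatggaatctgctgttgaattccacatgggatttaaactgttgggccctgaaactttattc
Postn, chr3:54360857-54361106, plus strand: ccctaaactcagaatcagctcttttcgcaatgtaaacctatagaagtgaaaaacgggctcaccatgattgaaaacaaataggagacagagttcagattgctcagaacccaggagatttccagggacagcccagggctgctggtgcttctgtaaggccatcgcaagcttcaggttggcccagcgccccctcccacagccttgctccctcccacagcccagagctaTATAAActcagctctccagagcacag
Fbln1, chr15:85205699-85205948, plus strand: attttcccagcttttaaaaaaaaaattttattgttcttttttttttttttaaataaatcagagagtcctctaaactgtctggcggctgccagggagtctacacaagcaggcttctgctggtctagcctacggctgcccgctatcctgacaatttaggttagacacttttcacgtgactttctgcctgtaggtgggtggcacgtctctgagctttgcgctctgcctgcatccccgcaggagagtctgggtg
In Postn the TATAAA began 26 bases before the start, while in Ogn and Aspn the matches lay 178 to 229 bases before it. TATAAA was present in 12.4% of 32851 promoters of this length and in 7 of the 28 promoters of the 23 members (those of Aspn, Col3a1, Ogn, Postn, Thbs2 and Tnc). The CCAAT box was present in 33.8% of all promoters and 6 of the 28, the SP1 letters in 32.7% and 13, the AP-1 letters in 6.75% and 1, and the GLI letters in 0.225% and 0. The printed Fbln1 window held none of these letters, and the window of the gene's other RefSeq start held the SP1 letters. A match describes letters in the window and not a bound site.

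Vcan (versican, a large chondroitin sulfate proteoglycan that binds hyaluronan) stood at 9.87, 51.7 and 49.6 CPM in stroma. It was 5.24-fold higher at PND7 than at ED16.5 (3.28 to 8.88), with no such difference between PND7 and PND14 (ratio 0.958, 0.793 to 1.16).

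Among elastic fibre and microfibril genes, Mfap5 was higher after birth and Eln and Fbln1 were lower late. Mfap5, which encodes a glycoprotein of fibrillin microfibrils, had 10 UMIs at ED16.5 and 454 and 455 at PND7 and PND14, or 5.19, 107 and 98.5 CPM. The PND7 level was 20.6-fold the ED16.5 level (11.1 to 43.2). Eln, which encodes tropoelastin, stood at 206, 139 and 64.3 CPM. Fbln1 (fibulin 1, a glycoprotein of elastic fibres and basement membranes) stood at 173, 173 and 57.3 CPM. Both were lowest at PND14, where Fbln1 was 3.02-fold lower than at PND7 (2.62 to 3.49) and Eln 2.16-fold (1.88 to 2.49). The Eln difference was near the limit and was not called in 7 of the alternatives, median-of-ratios scaling among them (-0.87 on the log2 scale).

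Of the fibrillin genes, which encode the microfibril core, Fbn1 stood at 78.9, 108 and 109 CPM and Fbn2 at 102, 130 and 106 CPM, and neither met the rule in any contrast. Mfap2, a second microfibril glycoprotein gene, stood at 1019, 1391 and 741 CPM, and Mfap4 at 745, 1403 and 808 CPM. Both were highest at PND7 and neither met the rule. Fbln2 had at most 21 UMIs in the stroma of any library.

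Loxl1, an amine oxidase that crosslinks elastin, stood at 288, 229 and 100.4 CPM and was 2.28-fold lower at PND14 than at PND7 (2.04 to 2.55). It therefore was lowest at PND14, as Eln and Fbln1 were. Its call was absent with median-of-ratios scaling (-0.97 on the log2 scale) and without cluster 16. Lox, the founding member of the family, stood at 29.6, 33.9 and 26.2 CPM. Pcolce, which enhances removal of the procollagen C-propeptide, stood at 173, 496 and 271 CPM and was 2.87-fold higher at PND7 than at ED16.5 (2.55 to 3.23).

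The adhesive and matricellular group held the members with the largest ratios in both directions between PND7 and PND14. Postn (periostin, a matricellular protein that binds collagen and tenascin) stood at 32.2, 80.9 and 9.31 CPM. It was 2.51-fold higher at PND7 than at ED16.5 (1.91 to 3.35) and then 8.69-fold lower at PND14 (6.32 to 12.2). The first of these differences missed the 2-fold rule with cell-by-cell gating and without deep cells. Spon1 (spondin 1, or F-spondin, a secreted adhesion protein) had 8, 19 and 320 UMIs, or 4.15, 4.47 and 69.2 CPM. It was 15.5-fold higher at PND14 than at PND7 (9.76 to 26.1). Postn is thus an early and Spon1 a late gene of the stroma in these libraries.

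The other members of the group met the rule in fewer contrasts. Mgp, which encodes an inhibitor of calcification, stood at 519, 935 and 1108 CPM and was 2.14-fold higher at PND14 than at ED16.5 (2.00 to 2.29). Sparc (osteonectin, a collagen chaperone of the matrix) stood at 1536, 2426 and 2248 CPM, and its relative Sparcl1 at 441, 511 and 448 CPM. Fn1 (fibronectin) stood at 98.1, 84.9 and 67.7 CPM. Tnc (tenascin C) stood at 11.4, 31.5 and 20.6 CPM, and its 2.76-fold ratio at PND7 over ED16.5 (1.75 to 4.55) fell short of the rule. Islr stood at 274, 275 and 137 CPM, 2.01-fold lower at PND14 than at PND7 (1.82 to 2.22) and just short of the rule. Of the thrombospondins, which restrain vessel growth, Thbs1 stood at 38.9, 61.6 and 68.8 CPM and Thbs2 at 15.1, 29.2 and 16.0 CPM.

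**Figure D3:**
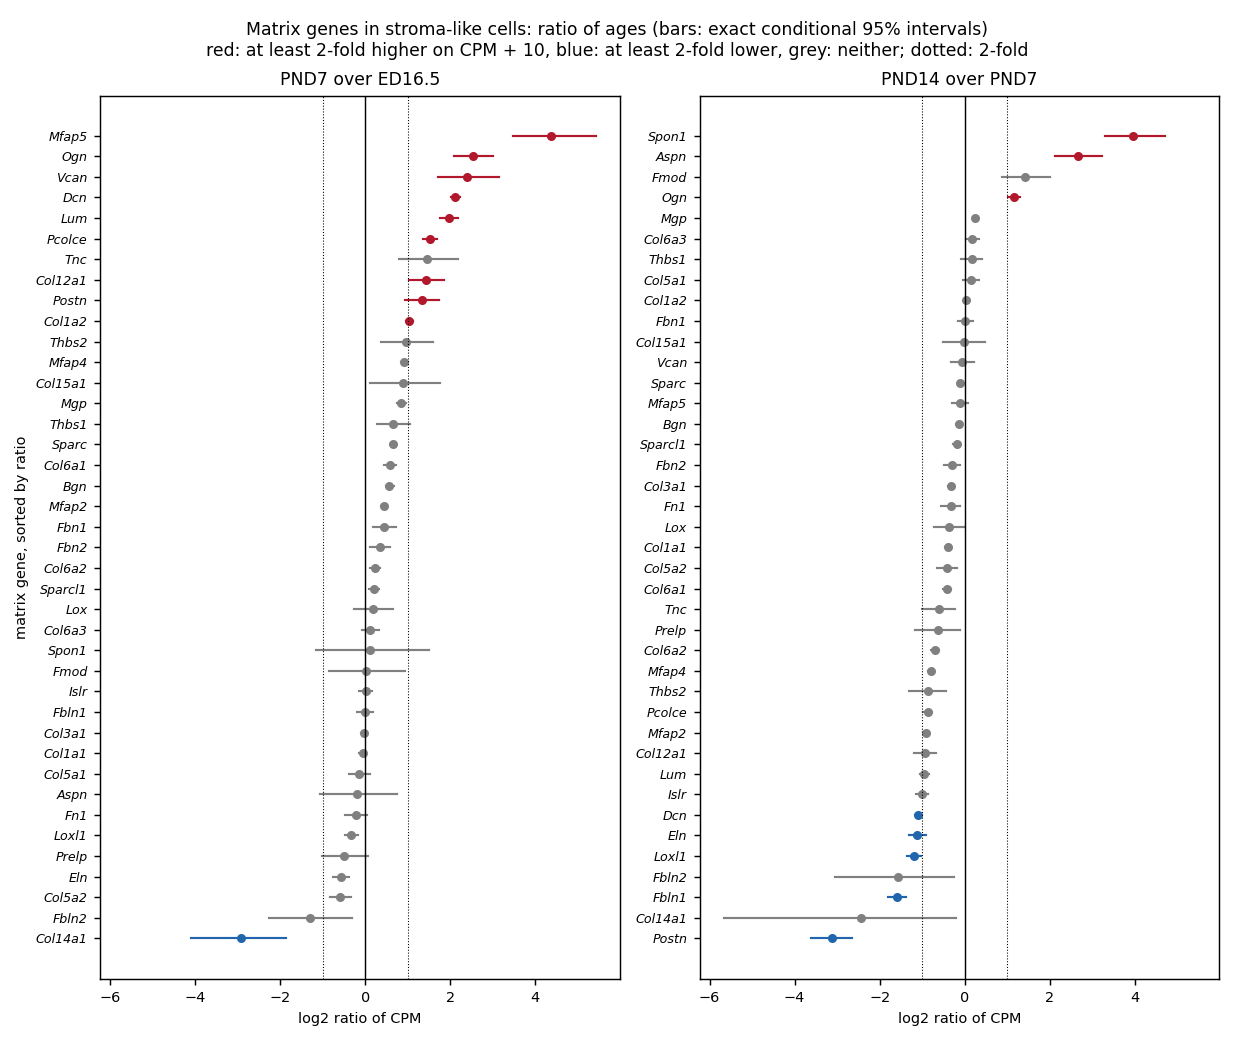
Log2 ratio of CPM in stroma-like cells, PND7 over ED16.5 (left) and PND14 over PND7 (right), with exact conditional 95% intervals and genes sorted by ratio. Mfap5, Ogn, Vcan, Dcn and Lum head the left panel, Spon1 and Aspn head the right, and Postn is at the foot of the right.

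The ages could also be compared inside 4 stroma-like clusters that held at least 10 cells in both postnatal libraries. The minimum was lowered from 20 after the values were seen, so that cluster 17, with 15 PND7 cells, could be read. At PND14 against PND7, members called higher and lower numbered 1 and 11 of 38 in cluster 11 (0.491% and 1.33% of all genes), 2 and 4 of 35 in cluster 14 (2.58% and 4.14%), 2 and 2 of 36 in cluster 16 (1.05% and 1.42%) and 2 and 5 of 38 in cluster 17 (8.01% and 4.13%).

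Postn was lower at PND14 in each of the 4 clusters. It went from 76.8 to 7.25 CPM in cluster 11, from 44.4 to 8.18 in cluster 14, from 82.1 to 12.5 in cluster 16 and from 131 to 7.16 in cluster 17. Its difference was therefore present inside every cluster that could be compared. All genes together summed to 244479 UMIs in cluster 14 at PND14 and to 130231 in cluster 17 at PND7. The Postn levels there thus rested on few UMIs. Spon1 was higher at PND14 in 3 of the 4 clusters, from 4.40 to 46.2 CPM in cluster 11, from 5.36 to 32.0 in cluster 16 and from 23.04 (3 UMIs) to 117 in cluster 17. In cluster 14 no Spon1 UMI was found at either age.

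Aspn and Ogn were read in the same clusters. Aspn stood at 107 CPM in the PND7 cells of cluster 17 and at 101 CPM in its PND14 cells, a ratio of 0.942 (0.549 to 1.76), and had no UMI in the PND7 cells of clusters 11, 14 and 16. Ogn was called in none of the 4 clusters, with ratios of 1.23 to 1.45, although it was 2.23-fold higher over all stroma-like cells. Both genes were at their highest stromal level in cluster 17, which held 15 of 329 stroma-like cells at PND7 and 182 of 358 at PND14. Fbln1 was called lower in cluster 11 (157 to 65.2 CPM) and cluster 17 (338 to 61.9 CPM), and not in clusters 14 and 16. Dcn was called lower in cluster 11 alone, from 1496 to 552 CPM, and its ratio of PND7 to PND14 was 1.22 in cluster 14, 1.12 in cluster 16 and 1.96 in cluster 17.

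The total matrix share also differed between clusters. At PND7 it was 2.32% of UMIs in cluster 14, 2.30% in cluster 17, 2.16% in cluster 15, 1.43% in the cycling cluster 11 and 1.07% in cluster 16. At PND14 it was 2.23% in cluster 14, 1.78% in cluster 17, 0.95% in cluster 11 and 0.90% in cluster 16. Clusters 11 and 16 thus had the lowest shares at both ages. Mgp was highest in cluster 14, at 1483 CPM at PND7 and 3145 CPM at PND14.

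**Figure D4:**
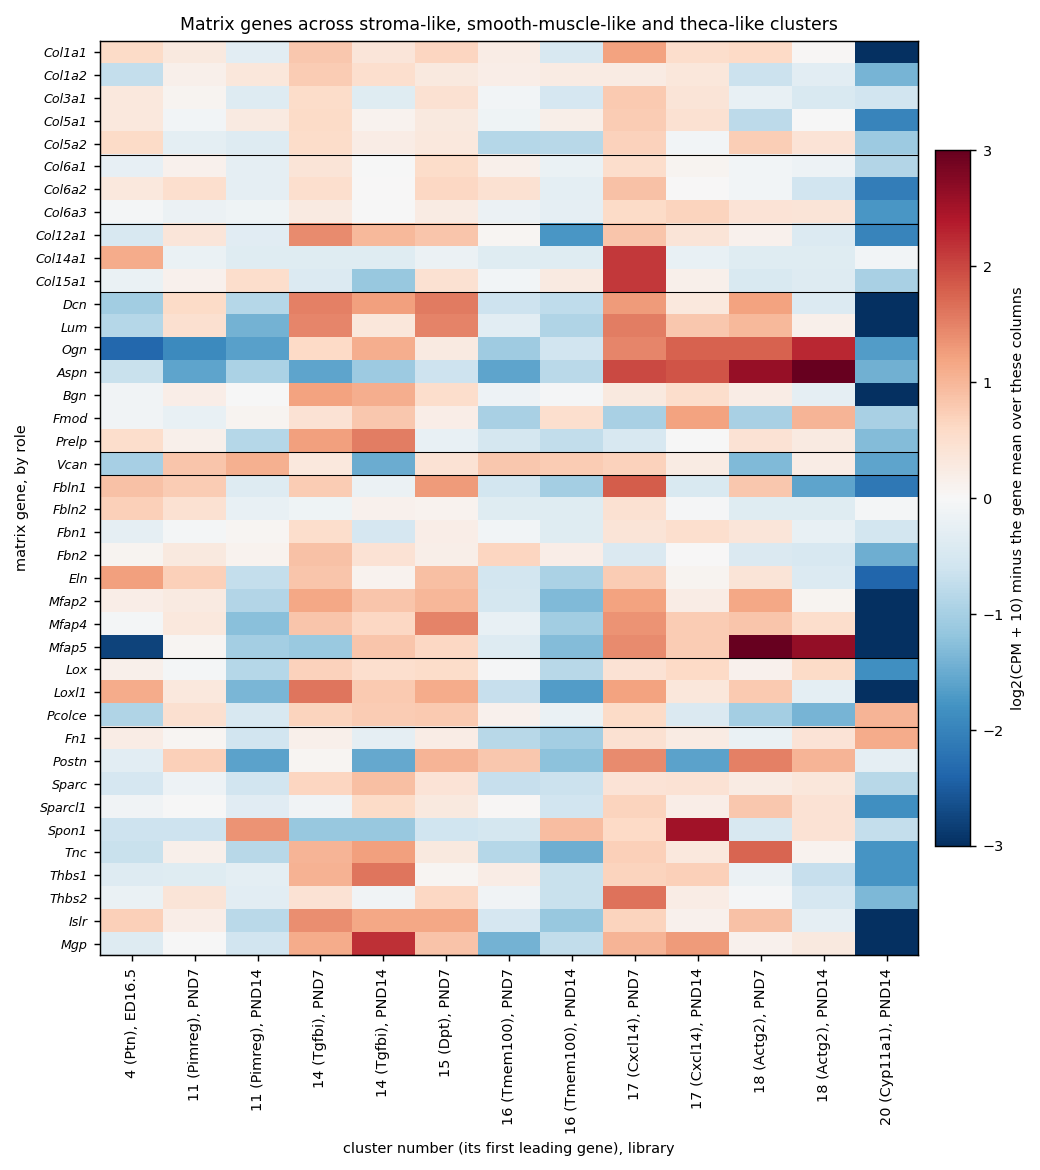
Matrix genes (rows) across stroma-like, smooth-muscle-like (18) and theca-like (20) clusters by library (columns), as log2(CPM + 10) minus the gene's mean over the columns, with values beyond 3 drawn in the end colour. Postn is blue in the PND14 columns of clusters 11, 14, 16 and 17, and Aspn is red in both columns of clusters 17 and 18.

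The level of a gene can rest on few cells, so the share of stroma-like cells with a UMI was taken after thinning each cell to 5000 UMIs, which left out 0 cells. Cells with an Ogn UMI made up 6.54%, 45.6% and 59.5% at the 3 ages (24.3%, 61.1% and 75.4% unthinned). Spon1 was found in 0.935%, 1.22% and 22.6% of cells, and Aspn in 2.8%, 3.95% and 14.2%. Both late genes were thus found in a minority of PND14 stroma-like cells. Postn was found in 14.95%, 25.8% and 2.51%, Fbln1 in 57.9%, 60.5% and 23.5%, and Mfap5 in 1.87%, 27.4% and 26.5%. A stroma-like cell held UMIs of 17, 20 and 18 of the 40 members in the median, against 1 member in the median erythroid-like cell of each library. Fewer transcribing cells and less RNA per cell cannot be told apart for genes this close to 1 UMI per cell.

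**Figure D5:**
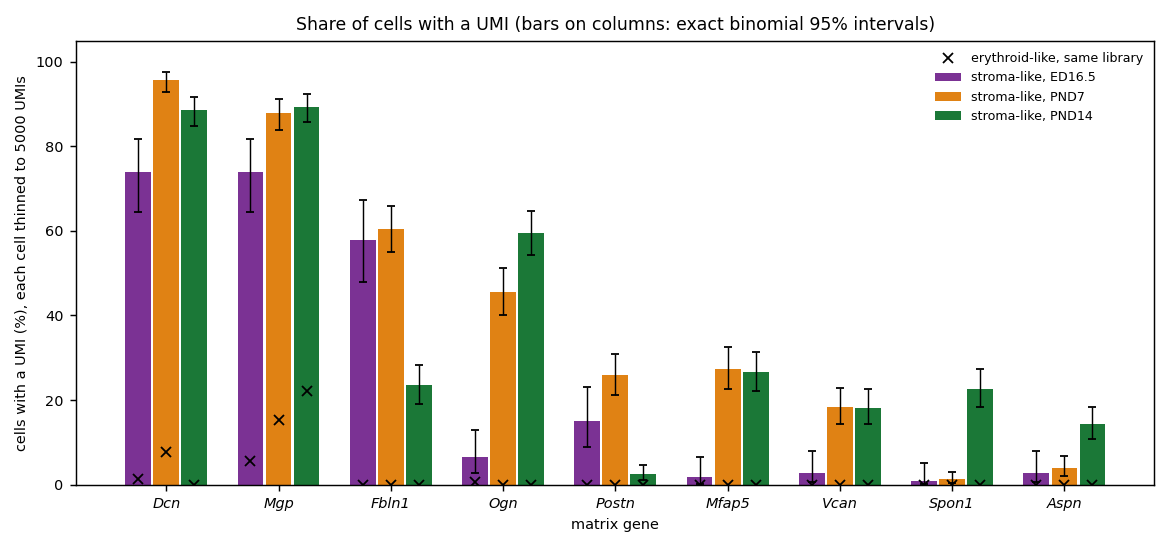
Share of stroma-like cells with a UMI of each of 9 matrix genes, each cell thinned to 5000 UMIs, at ED16.5, PND7 and PND14 with exact binomial 95% intervals. Crosses give erythroid-like cells of the same library. The genes were chosen after their values were seen. Dcn columns exceed 70% at all ages, while Spon1 and Aspn exceed 10% at PND14 only.

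Smooth-muscle-like cells (cluster 18, led by Actg2, Cnn1 and Tagln, 12 cells at PND7 and 28 at PND14) carried as much matrix as the stroma, with 1.84% and 1.43% of UMIs. At PND14, 4 of 38 members were higher in them than in stroma-like cells (2.58% of all genes were) and 3 were lower (2.95%). The higher genes were Aspn at 427 CPM (8.69-fold, 6.94 to 10.8), Mfap5 at 639 CPM (6.49-fold, 5.45 to 7.69), Ogn at 811 CPM (2.70-fold, 2.35 to 3.10) and Postn at 96.0 CPM (10.3-fold, 6.21 to 16.9). Spon1, Fbln1 and Pcolce were lower. Of these 4 higher genes, Ogn and Aspn were also higher at PND14 than at PND7 in stroma. Mfap5 was not (107 and 98.5 CPM), and Postn was lower (80.9 and 9.31 CPM). Smooth muscle markers had a higher summed level in the PND14 than in the PND7 stroma, as given above, and their part was not tested. With stroma-like cells holding a UMI of Rgs5, Cspg4, Notch3, Kcnj8, Abcc9 or Higd1b left out, Ogn, Aspn and Spon1 were still called higher at PND14 than at PND7. The part of Acta2-bearing cells in the result was not tested.

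Theca-like cells, found only in the PND14 library (cluster 20, 42 cells), carried 0.425% of UMIs in members. Against PND14 stroma, 30 of 38 members were lower (4.02% of all genes were) and 3 higher (5.14%). Col1a1 stood at 21.1 CPM, 35.7-fold below stroma (22.8 to 59.3), and Mgp at 43.2 CPM, 25.6-fold below (18.7 to 36.1). The 3 higher genes were Pcolce at 678 CPM, Fn1 at 187 CPM and Postn at 33.2 CPM.

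In granulosa-like cells, the follicle cells that surround the oocyte, the levels of most collagen genes tested were lower at PND7 than at ED16.5. At PND7 against ED16.5, 13 of 33 members were lower (5.33% of all genes), 8 of them collagen genes, and 4 higher (3.43%). Col1a1 was 183 CPM at ED16.5 and 22.9 at PND7, and Col3a1 was 356 and 47.9 CPM. The Col1a1 UMIs of ED16.5 lay in 26 of 75 cells. The member share of the median granulosa-like cell was 0.168% at ED16.5 and 0.201% at PND7, the other order to the summed shares of 0.305% and 0.235%, and the highest ED16.5 cell stood at 2.03%. Vcan and Thbs1 went the other way: Vcan stood at 11.3, 92.3 and 150 CPM over the 3 ages and Thbs1 at 62.4, 239 and 248.6 CPM. Granulosa-like cells had the highest level of both at every age. For Vcan at ED16.5, however, the interval (6.57 to 18.1) overlapped that of stroma (9.87 CPM, 5.94 to 15.4). Thbs2, by contrast, stood at 91.6 CPM at ED16.5 and at 4.59 and 5.5 CPM later. At PND14 against PND7, 5 of 36 members were higher in granulosa-like cells (1.22% of all genes), Spon1 (2.04 and 22.0 CPM) and Ogn (7.65 and 31.2 CPM) among these, and 0 were lower (1.23%). At PND14 against ED16.5, 6 of 36 were higher (2.95%) and 9 lower (6.53%). In PND14 erythroid-like cells Ogn stood at 14.8 CPM (3.06 to 43.3, 3 UMIs) and Spon1 at 4.94 CPM (1 UMI). The part of free stromal RNA or of mixed droplets in the granulosa-like values was not tested.

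In endothelium-like cells, 13 of 27 members were higher at PND7 than at ED16.5 (4.89% of all genes) and 1, Col15a1, was lower (1.79%). Sparc, at 3258, 5887 and 3981 CPM, was higher there than in any other class at every age. Eln stood at 4.06 (2 UMIs), 101 and 108 CPM, and Mgp at 16.2, 211 and 304 CPM. At PND14 against PND7, 9 of 34 members were higher (3.24%) and 0 lower (0.999%). The class held 19, 21 and 28 cells, and stroma genes such as Dcn (4.06, 79.0 and 111 CPM) were also among those seen more after birth. The part of free stromal RNA or of mixed droplets in these values was not tested.

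Surface-epithelium-like cells (11, 15 and 12 cells) were high in Eln, at 247, 782 and 783 CPM, above every other class at each age. At ED16.5 the Eln interval (193 to 312) overlapped that of stroma (206 CPM, 186 to 227). At PND7 against ED16.5, 7 of 30 members were higher in surface-epithelium-like cells (7.79% of all genes) and 12 lower (6.01%), all 5 fibrillar collagen genes among the latter. At PND14 against PND7, 13 of 31 were higher (7.03%) and 2 lower (3.62%). At PND14 against ED16.5, 10 of 32 were higher (12%) and 6 lower (6.37%). With so few cells 1 cell can carry a level: at ED16.5 the highest cell had 3.28% of its UMIs in members, against 0.442% in the median cell. Col6a1 stood at 127, 494 and 771 CPM and Col6a2 at 138, 515 and 699 CPM. Both were above their stromal level at PND14 and, with overlapping intervals, at PND7 (465 and 490 CPM in stroma). Immune-like cells at PND7 held 0.624% of UMIs in members, but the middle 50% of these 19 cells ran from 0.0559% to 1.13%, so that some cells carried a stroma-like share and others almost none.

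Genes that process, degrade and bind interstitial matrix were read in stroma by the same rule. For each list the counts can be set against the shares of all genes given above, 1.91% higher and 1.56% lower at PND7 against ED16.5, 0.375% and 0.75% at PND14 against PND7, and 2.01% and 2.61% at PND14 against ED16.5. Values of a gene follow the order ED16.5, PND7 and PND14, and the genes named are those at the ends of a list or called.

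Of the collagen synthesis enzymes and chaperones, 0 of 22 were called at PND7 against ED16.5, 0 of 23 at PND14 against PND7, and 1 of 23 was lower at PND14 than at ED16.5. That gene was P4ha3, a prolyl hydroxylase subunit, at 17.1, 7.99 and 1.95 CPM. P3h3 stood at 79.4, 137 and 78.1 CPM, Bmp1, the procollagen C-proteinase, at 111, 66.3 and 62.5 CPM, and Plod2, a lysyl hydroxylase, at 52.4, 57.6 and 106 CPM.

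Of 16 proteases and inhibitors, 1 was higher at PND7 than at ED16.5, 1 was lower at PND14 than at PND7, and 1 was higher and 2 lower at PND14 than at ED16.5. Ctsk (cathepsin K, a collagen-degrading protease) was the higher one, at 5.19, 28.7 and 32.5 CPM. Mmp11 was lower at PND14 in both contrasts, at 132, 143 and 52.6 CPM, and Mmp14, a membrane-bound collagenase, was lower at PND14 than at ED16.5, at 245, 159 and 106 CPM. Adamts4 stood at 3.12, 3.06 and 11.04 CPM.

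Of 14 TGF-beta genes, 1 was higher and 2 were lower at PND7 than at ED16.5, 0 and 1 at PND14 against PND7, and 0 and 3 at PND14 against ED16.5. Tgfb3 was the higher one, at 34.3, 89.8 and 51.9 CPM. Tgfb2 stood at 119, 19.8 and 11.9 CPM and Ltbp1, which binds latent TGF-beta, at 72.2, 9.40 and 9.31 CPM, both lower at the later ages than at ED16.5. Tgfbi, a collagen-binding product of TGF-beta signalling that also leads cluster 14, was lower at PND14 than at both earlier ages, at 331, 289 and 132 CPM. Ctgf stood at 2.60, 10.1 and 12.3 CPM.

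Of 17 basement membrane genes, 4 were higher at PND7 than at ED16.5, 2 at PND14 than at PND7 and 5 at PND14 than at ED16.5, and 0 were lower in any of these contrasts. Col4a4, a collagen IV chain, was higher in all of them, at 13.0, 87.0 and 196 CPM. Col4a3, its partner, stood at 1.04, 17.2 and 29.4 CPM, Lama2 at 25.4, 103 and 98.0 CPM, and Hspg2 (perlecan) at 60.2, 142 and 109 CPM, each higher at PND7 than at ED16.5. Col4a5 stood at 20.8, 7.76 and 27.9 CPM and Agrn (agrin) at 21.3, 9.40 and 7.79 CPM.

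Of 13 collagen and fibronectin receptors, 0 were higher and 2 lower at PND7 than at ED16.5, 0 were called at PND14 against PND7, and 2 were higher and 1 lower at PND14 than at ED16.5. Itga8 was lower at both later ages than at ED16.5, at 31.7, 6.82 and 5.19 CPM, and Ddr1 was lower at PND7, at 28.6 and 8.70 CPM. Ddr2, the receptor for fibrillar collagen, and Itgb3 were higher at PND14 than at ED16.5, at 11.9, 28.7 and 38.1 CPM and at 0.519, 8.23 and 19.5 CPM. Cd44, a hyaluronan receptor, stood at 22.3, 15.5 and 6.92 CPM.

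Of 5 hyaluronan and proteoglycan partners, 0 were called at PND7 against ED16.5 or at PND14 against PND7, and 0 were higher and 1 lower at PND14 than at ED16.5. The lower one was Hapln1, the link protein that fixes versican to hyaluronan, at 25.4, 14.1 and 3.68 CPM. Cemip stood at 3.12, 8.23 and 8.66 CPM and Hyal1 at 8.31, 6.58 and 9.74 CPM.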

How the data were processed

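Gene by cell UMI counts were deposited by the authors for 3 libraries (10x Genomics 3′ v2 chemistry, per the labels' protocols), made with Cell Ranger 2.1.1 on GRCm38, per the submitters' processing notes. The counts were used as deposited. Barcodes with fewer than 200 genes or over 20% mitochondrial UMIs were dropped. Clusters came from scanpy 1.11.5: scaling to 10000 UMIs, log transform, 2000 variable genes without the 40 members, 30 components, 15 neighbours and Leiden at resolution 1. A cluster took the class with the most markers at least 2-fold above other cells on CPM + 10, needing 3, with ties decided by the 10 leading genes. No doublet caller was run. UMIs were summed per class and library. Intervals are exact Poisson for levels, conditional binomial for ratios and Clopper-Pearson for shares, at 95%. With 1 library per age no test was run. A count of 0 allows up to 3 UMIs, which is 1.56, 0.705 and 0.649 CPM in stroma-like cells at the 3 ages. The member and marker lists were chosen with earlier results of these data known. Members with at least 50 UMIs in the stroma of a library (38 of 40) were described by level, as was Col14a1 after its values were seen, and of each related gene list the extremes of each stroma contrast were named, except 1 that is not reported here. Alternatives covered scaling, pseudocount, filters, clustering and left-out cells. The scripts were tested on simulated counts. Of the 40 genes, 23 overlap another gene and 6 do so on the same strand.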

Additional observations from a re-analysis of the deposited data

Results flagged for a closer look

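Several matrix genes were called in opposite directions in stroma-like cells and in another class under the same contrast of ages. Each class is 1 library per age and the difference between classes was not tested. Differences are log2 of CPM + 10.

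Col1a2 at PND7 against ED16.5 differed by 1.03 in stroma-like cells, by -1.40 in granulosa-like cells (155 to 52.5 CPM) and by -2.20 in surface-epithelium-like cells (360 to 70.6 CPM). The ED16.5 surface value came from 7 of 11 cells, 1 of which had a member share of 3.28% against a class median of 0.442%, and the part of that cell was not tested. Col12a1 in that contrast differed by 1.19 in stroma and by -1.18 in granulosa-like cells (39.2 to 11.7 CPM).

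Eln at PND14 against ED16.5 differed by -1.54 in stroma, by 3.07 in endothelium-like cells (4.06 to 108 CPM) and by 1.62 in surface-epithelium-like cells (247 to 783 CPM). The endothelial ED16.5 value of Eln rested on 2 UMIs. Loxl1, which crosslinks elastin, differed by -1.43 in stroma, by 1.03 in endothelium-like cells (8.11 to 26.9 CPM) and by 2.20 in surface-epithelium-like cells (35.3 to 199 CPM). Its endothelial difference was near the limit, with 4 UMIs at ED16.5.

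Fbln1 at PND14 against ED16.5 differed by -1.44 in stroma and by 1.43 in granulosa-like cells (35.2 to 112 CPM), and against PND7 by 1.82 in surface-epithelium-like cells (30.7 to 134 CPM). Spon1 at PND14 against PND7 differed by 2.45 in stroma and was called lower in surface-epithelium-like cells, from 30.7 CPM (10 UMIs in 15 cells) to a count of 0 in 12 cells, which allows up to 9.32 CPM at 3 UMIs. The exact upper limit of that count is 11.5 CPM, at which the 2-fold rule would not be met.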

How the results depend on the processing

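Across 15 alternatives, 0 of the 30 member differences called in stroma reversed. The count lower at PND14 than at PND7 (5) was 2 with median-of-ratios scaling, 8 with a pseudocount of 1 CPM, and 3 without cluster 16 or without clusters 11 and 16. The count lower at PND7 than at ED16.5 (1, Col14a1) was 2 with a pseudocount of 1 CPM and 0 with at least 50 UMIs, each library clustered on its own, resolution 2, or pericyte-marker cells left out. The count higher at PND14 than at ED16.5 (7) was 13 without clusters 11 and 16 and 11 without pericyte-marker cells. The count higher in stroma than in other cells at PND14 (21) was 12 when cells were gated one by one and 13 without pericyte-marker cells. Alternatives that left out clusters, pericyte-marker cells or deep cells were chosen after seeing the data. The member share of 1.13%, 1.77% and 1.36% was 1.15%, 1.99% and 1.56% as a mean over cells, and 1.75%, 2.56% and 2.17% without mitochondrial, ribosomal protein and haemoglobin UMIs. The Ogn call at PND14 against PND7 was lost with libraries clustered alone, with cell-by-cell gating and without cluster 11, and the Postn call at PND7 against ED16.5 with gating and without deep cells. The cause was not tested. Removing possible doublets left 0, 3 and 5 cells, so that alternative was not run, and every cluster was named, so adding unnamed clusters gave no value. No paired analysis was possible because each age is 1 library.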
